A study of Mus musculus with 6 samples.

Results

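The genes described here carry out DNA replication and entry into S phase, the part of the cell cycle in which the genome is copied. They form a list of 49 genes, and every probe set whose gene symbol in the array's annotation is one of them was taken, which gave 111 probe sets of the 45101 on the array. The samples were RNA of C3H10T1/2, a mouse mesenchymal cell line that can turn into fat, cartilage, bone or muscle cells in culture. A first group of 3 samples received 50 ng/ml BMP4, a bone morphogenetic protein, while the cells proliferated, and a second group of 3 samples did not. RNA of both groups was taken after the cells had grown past confluence, and each sample was measured on 1 array. All samples come from this cell line, and the labels do not say whether the replicates came from cultures grown apart. The p-values therefore rest on how far these samples vary, and that variation may be technical. Markers of mesenchymal cells fitted the label, since 12 of 12, among them the collagen genes Col1a1 and Col3a1 and the filament gene Vim, lay above background on every array. Of these, Pdgfra (-0.90, limma adjusted p = 6.34e-05) and Twist1 (-0.48, adjusted p = 0.0440) were called lower with BMP4 on the log2 scale explained below. In this bulk RNA a larger share of cells in the cycle and more transcript per cell cannot be told apart.

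Replication starts at origins that are licensed in G1. The origin recognition complex, with Cdc6 and Cdt1, loads the ring of Mcm2 to Mcm7, and geminin, the product of Gmnn, blocks Cdt1 once S phase has begun. Kinases, one of them activated by Dbf4, then turn the ring into the active helicase by adding Cdc45 and the GINS complex. DNA polymerase alpha with primase starts each strand, polymerases delta and epsilon extend it on the Pcna clamp that the replication factor C complex loads, and nucleases and ligase join the pieces. Many of these genes are known targets of E2F transcription factors, which are held back by the retinoblastoma protein in resting cells.

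Promoter sequences of the members whose signal changed most are shown first, because E2F binding sites are the feature these genes are best known to share. Of the 49 genes, 40 had a promoter in the RefSeq table of build GRCm38.p6. Those not matched were Mcm4, Gins1, Gins2, Prim2, Pole, Rfc2, Ccne2, Exo1 and Gmnn. The sequences below run 5′ to 3′ over the 250 bases before the transcription start, and capitals mark matches to the E2F heptamers TTTCCCG or TTTCGCG or TTTGCCG or TTTGGCG on either strand.
Tk1, chr11:117826015-117826264, minus strand: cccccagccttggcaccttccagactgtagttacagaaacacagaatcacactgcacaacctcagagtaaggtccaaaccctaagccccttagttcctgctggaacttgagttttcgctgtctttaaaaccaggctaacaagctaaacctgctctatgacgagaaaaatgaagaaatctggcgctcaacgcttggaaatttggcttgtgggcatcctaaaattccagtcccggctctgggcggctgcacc
Rrm2, chr12:24708004-24708253, plus strand: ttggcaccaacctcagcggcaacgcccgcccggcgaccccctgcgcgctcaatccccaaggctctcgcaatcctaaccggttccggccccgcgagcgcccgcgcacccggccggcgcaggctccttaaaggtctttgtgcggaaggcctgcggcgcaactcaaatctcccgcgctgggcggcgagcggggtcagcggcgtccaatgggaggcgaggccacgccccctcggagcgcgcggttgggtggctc
Mcm5, chr8:75109259-75109508, plus strand: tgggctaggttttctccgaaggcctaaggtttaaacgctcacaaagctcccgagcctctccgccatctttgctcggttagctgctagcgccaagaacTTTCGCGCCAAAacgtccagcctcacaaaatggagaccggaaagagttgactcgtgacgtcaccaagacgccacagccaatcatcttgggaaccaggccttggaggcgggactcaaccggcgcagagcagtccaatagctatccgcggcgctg

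The Mcm5 promoter held 2 overlapping heptamers in opposite orientation, which make up its run of capitals, while the letters of Tk1 and Rrm2 held none in this window. A CCAAT box began 50 bases before the start of Rrm2, and the Tk1 window held neither of the other motifs searched. Shorter windows of other members show the matches with 12 bases on each side where these lie before the start.
Mcm6, chr1:128359792-128359827, minus strand: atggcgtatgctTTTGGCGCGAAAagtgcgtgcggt
Mcm6, chr1:128359734-128359764, minus strand: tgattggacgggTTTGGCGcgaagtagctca
Mcm7, chr5:138172029-138172059, minus strand: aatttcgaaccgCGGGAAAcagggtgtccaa
Cdc6, chr11:98908002-98908032, plus strand: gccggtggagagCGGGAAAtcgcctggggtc
Rfc3, chr5:151651209-151651230, minus strand: gacgtcgcacgcTTTCGCGctc
Mcm6 held an overlapping pair like that of Mcm5 and a single heptamer nearer to the start. Over the full window of 300 bases, from 250 before to 50 after the start, 19 of the 40 genes (47.5%) had at least 1 heptamer, against 12.1% of the 10409 tested genes with a promoter in the table. The share was 9 of 19 (47.4%) among members that passed the test of BMP4 against control and also 9 of 19 (47.4%) among measured members that did not. The CCAAT box, searched on both strands, was found in 23 of 40 members (57.5%) and 42.8% of tested genes. The hexamer TTTGAA, a common promoter element of mitotic genes, was found in 7 of 40 members (17.5%), in 22 of 31 genes (71.0%) of a list of mitosis genes and in 14.6% of tested genes. No motif contains another, though heptamers of opposite strands can share bases, and a match describes the sequence only.

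Before the results, the arrays themselves are described. The 2% trimmed mean signal was 150 on all 6 arrays, and median signals were 37.6 to 42.6 on the BMP4 arrays and 35.2 to 37.3 on the control arrays. Gapdh probe sets, a check of RNA integrity, gave 3′/5′ ratios between 0.710 and 0.737 in BMP4 samples and between 0.688 and 0.736 in controls. The highest signal of 27 control probe sets for Bacillus transcripts was 29.1, on BMP4 replicate 2, and this value is taken as background for all arrays. On BMP4 replicates 1 and 3 the highest was 23.5 and 24.1, and on control replicates 1, 2 and 3 it was 17.1, 16.6 and 21.0. Background was thus higher on the BMP4 arrays, and the part of this in the results was not tested. Of markers of other cell types, 3 of 6 measured for blood, 1 of 6 for endothelium, 2 of 6 for epithelium and 3 of 5 for neural cells lay above background on every array, while Ptprc, Itgam, Cd3e, Pecam1, Vwf, Cdh1, Krt18, Ocln and Tubb3 were at or below it on all. Their summed signals with BMP4 and without were 219 to 359 and 224 to 247 for blood, 154 to 246 and 243 to 259 for endothelium, 358 to 590 and 457 to 559 for epithelium, and 259 to 273 and 191 to 230 for neural cells. The endothelial marker Tek was called lower, at -0.69 (limma adjusted p = 0.0167). The part of these markers in the results was not tested. Differences are given as log2(signal + 16), a scale on which dim genes appear to change less than they do. They were tested with limma and called higher or lower at an adjusted p of 0.05 over the 27022 probe sets that passed a filter on mean signal. A gene is represented by its brightest probe set with 1 gene symbol, and 12966 genes were tested.

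The listed genes of DNA replication were higher in BMP4-treated cells at most steps, by modest amounts. The list was chosen with earlier results of these data known, so its shares beside those of all genes describe this list only. Of the 49 genes, 46 had a probe set that passed the filter, and 24 of these 46 (52.2%) were called higher and 0 lower (limma, with 35 higher and 0 lower at an unadjusted p under 0.05). Over all genes tested, 5.03% were called higher and 5.66% lower. The median log2 change of the 46 genes was 0.41, against 0.03 over all genes tested, and single genes ranged from -0.18 to 1.19. Values were above 0 for 43 of the 46, against 55.1% of all genes. The 3 BMP4 arrays lay wholly above the 3 control arrays for 37 of the 46 genes, against 16.3% of all genes. They lay wholly below for 1 gene, E2f1, against 14.5% of all genes. Counting the members' probe sets with 1 gene symbol that passed the filter, 35 of 88 (39.8%) were called higher and 0 lower (1 lower at an unadjusted p under 0.05), against 4.20% and 4.91% of all probe sets. A called Brca1 probe set and an uncalled Chaf1b one, with control means of 22.8, passed the filter through their BMP4 arrays. The Cdc45 probe set that was lower passed it through its control arrays. Changes of at least 1 on the log2 scale were seen for 2 genes, Tk1 and Rrm2.

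**Figure D1:**
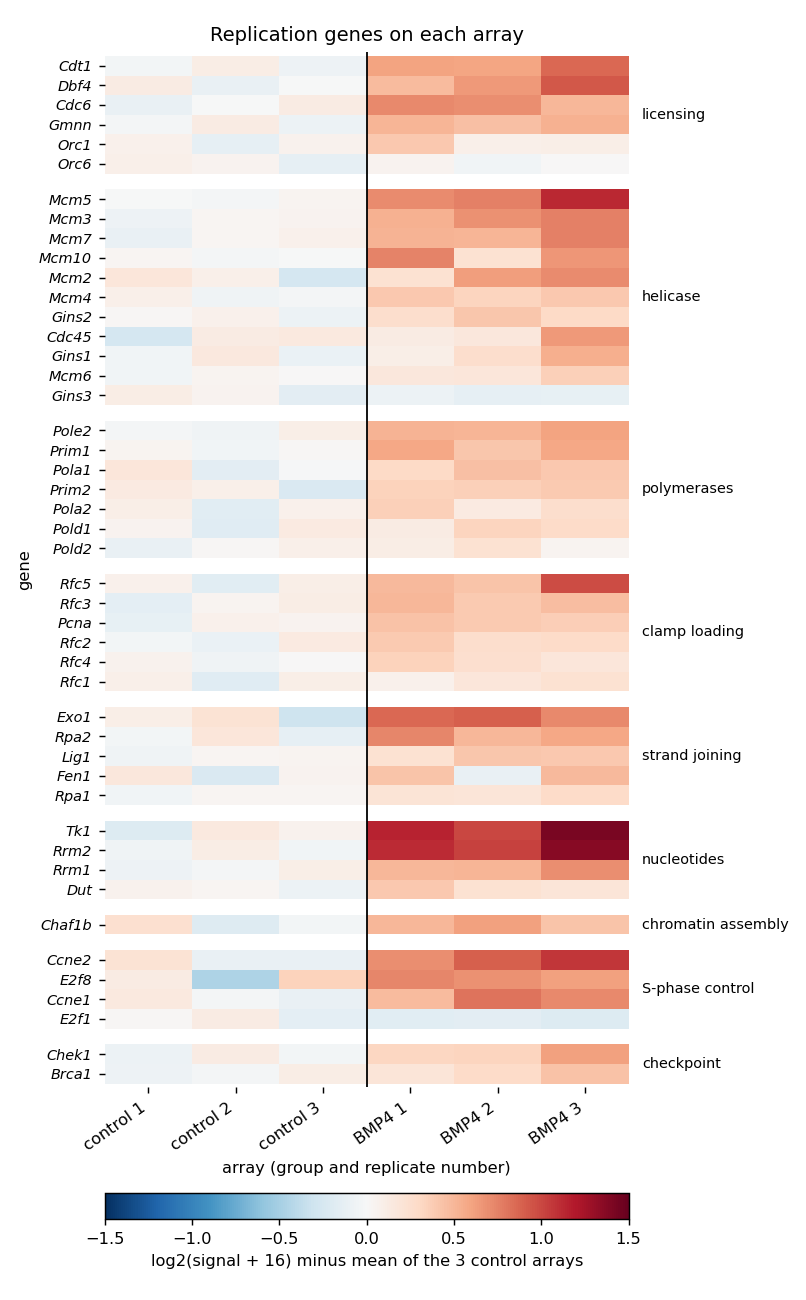
Each row is a replication gene and each column an array, and the colour gives log2(signal + 16) minus the mean of the 3 control arrays of that gene. The 3 BMP4 columns are red in nearly every row, with Tk1 and Rrm2 darkest, while Orc6, Gins3 and E2f1 stay pale or blue.

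The shift was seen on each BMP4 array. The median difference of the 46 genes from the control mean was 0.42, 0.40 and 0.49 on BMP4 replicates 1, 2 and 3, and 0.02, 0.02 and 0.01 on the control arrays. BMP4 replicate 3 had the highest value of its group for 23 genes, replicate 1 for 14 and replicate 2 for 9. Without BMP4 replicate 3 the number called higher was 15, and with arrays centred on their medians it was also 15. No other replicate moved the count by more than 1.5 times.

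The supply of deoxynucleotides held the largest changes, with 3 of 4 measured genes higher and a median of 0.87. Tk1, thymidine kinase of the salvage pathway, had signals of 123, 163 and 152 in controls and 341.5, 305.0 and 417 with BMP4. Its lowest BMP4 array lay well above its highest control array, and the log2 change was 1.19 ± 0.13 (SE, limma adjusted p = 0.000166), or 2.28-fold. Rrm2, the small subunit of ribonucleotide reductase, which makes deoxynucleotides from ribonucleotides and is itself limited to S phase, had signals of 806, 750.0 and 955 against 345, 393 and 348. It rose by 1.17 ± 0.09 (adjusted p = 2.51e-05), and its 2 other probe sets gave 0.98 and 1.04, both past the test. Rrm1, the large subunit, read 658, 666 and 757 with BMP4 and 437, 453 and 497 without it, with no overlap and a rise of 0.57 ± 0.08 (adjusted p = 0.00104). Dut, which removes dUTP before it can enter DNA, gave 0.28 (95% interval 0.04 to 0.52, adjusted p = 0.153). The thymidylate synthase gene Tyms had 4 probe sets of its own that did not pass the filter, and a brighter one that is also assigned to a pseudogene was left out. All 3 calls of this step held under each alternative tried.

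Among the licensing factors, the loaders and their regulators rose while the 2 measured subunits of the origin recognition complex did not pass the test. Differences between these genes were not tested. Cdt1 had signals of 315, 313.5 and 382 with BMP4 and 197, 221 and 191 without it. It rose by 0.68 ± 0.10 (SE, limma adjusted p = 0.00124), and a dimmer probe set gave 0.78. Its inhibitor Gmnn read 145, 139 and 147 against 94.5, 107 and 90.3, without overlap, and rose by 0.50 ± 0.11 (adjusted p = 0.0173). Dbf4, the activator of the kinase Cdc7, rose by 0.68 ± 0.13 (adjusted p = 0.00682) from signals of 131, 109 and 119 to 171, 196 and 243. Cdc6 had signals of 55.0, 54.1 and 44.7 with BMP4 and 23.9, 26.8 and 30.8 without it. Its control mean of 27.2 was under the background signal of 29.1, though each control signal was above the highest Bacillus signal of its own array. The rise of Cdc6 was 0.64 ± 0.17 (adjusted p = 0.0428). Orc1 gave 0.20 (95% interval -0.12 to 0.51, adjusted p = 0.462), and Orc6 had overlapping signals of 259, 240 and 250 against 266, 261 and 226 and a change of 0.00 (-0.20 to 0.19, adjusted p = 0.990). The step thus had 4 of 6 genes called higher, with 2 left, Cdt1 and Dbf4, if BMP4 replicate 3 was dropped, with median centring or at an adjusted p of 0.01, and also 2 if control replicate 1 or control replicate 3 was dropped.

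Of the helicase genes 6 of 11 were called higher, and 5 of these belong to the Mcm ring. Mcm5 had signals of 316, 326 and 427 with BMP4 and 186, 181.5 and 191 without it. It rose by 0.87 ± 0.11 (SE, limma adjusted p = 0.000527), the largest change of the ring, and its promoter is printed above. Mcm3 read 374, 419.5 and 441 against 240, 259 and 264.5, a rise of 0.66 ± 0.08 (adjusted p = 0.000540), and its 4 dimmer probe sets gave 0.40 to 0.54, none past the test (adjusted p = 0.0678 to 0.201). Mcm7 rose by 0.60 ± 0.08 (adjusted p = 0.00107), from 720, 793.5 and 818.5 to 1125, 1108 and 1321. On the brightest probe set of each of these 3 genes every BMP4 array was above every control array. Mcm2 rose by 0.52 ± 0.14 (adjusted p = 0.0389), with a second probe set at 0.50, and Mcm4 by 0.38 ± 0.07 (adjusted p = 0.00606), with a second at 0.13 that was not past the test (adjusted p = 0.473). Mcm6, the remaining ring subunit, gave 0.24 (95% interval 0.07 to 0.40, adjusted p = 0.0859), with its BMP4 signals of 433, 434 and 493.5 all above control signals of 368, 395 and 383. Dimmer probe sets gave 0.69 and 0.40 for Mcm5, the latter not past the test (adjusted p = 0.336). Those of Mcm7 gave 0.56, 0.41 and 0.35, the last not past the test (adjusted p = 0.0679). A second Mcm6 probe set gave 0.16 with overlapping groups (adjusted p = 0.376). On their brightest probe sets the 6 ring subunits therefore lay between 0.24 and 0.87, all positive, and differences among them were not tested.

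The other helicase factors were less clear. Mcm10, which joins the helicase when it is activated, had signals of 141, 94.9 and 133 against 80.3, 76.7 and 77.9 and rose by 0.54 ± 0.15 (SE, limma adjusted p = 0.0441), while a dimmer probe set gave 0.20 (adjusted p = 0.604). Cdc45 and the GINS subunits Gins1, Gins2 and Gins3 did not pass the test. Gins2 was nearest, at 0.32 (adjusted p = 0.0546), with every BMP4 array above every control array. Its dimmer probe set gave 0.26 with overlapping groups (adjusted p = 0.371). Cdc45 was at 0.31 (adjusted p = 0.359) on its brighter probe set and at -0.61 (adjusted p = 0.0983) on the other, whose BMP4 signals of 24.5, 16.2 and 26.7 were below background, so that it passed the filter through its control arrays and the size of that difference is not settled. Gins3 gave -0.12 and 0.20 on its probe sets, with an adjusted p of 0.666 and 0.425.

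Of the polymerase genes 2 of 7 measured were called higher, namely 1 subunit each of primase and of polymerase epsilon. Prim1, the catalytic primase subunit that lays down the RNA primer, had signals of 402, 357 and 403.5 with BMP4 and 271.5, 254 and 267 without it, a rise of 0.52 ± 0.08 (SE, limma adjusted p = 0.00157). A second Prim1 probe set rose by 0.51. Pole2, the second subunit of polymerase epsilon, read 222, 220.3 and 236 against 146, 142 and 162, and rose by 0.54 ± 0.09 (adjusted p = 0.00336). Neither gene had overlapping groups. The other subunits of the alpha-primase complex gave 0.37 for Prim2 (adjusted p = 0.0574), 0.39 for Pola1 (0.0610) and 0.25 for Pola2 (0.249). On these brightest probe sets every BMP4 array was above every control array. A second Prim2 probe set gave 0.09 with overlapping groups (adjusted p = 0.683). The polymerase delta subunits gave 0.25 for Pold1 and 0.13 for Pold2, with overlapping groups. A second Pold1 probe set gave 0.38 without overlap (adjusted p = 0.204). The catalytic epsilon gene Pole had 1 probe set, which did not pass the filter. With quantile normalization, cyclic loess or a filter at the 60th percentile 4 genes of this step were called higher.

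The clamp and its loader followed with changes of 0.16 to 0.63 on their brightest probe sets, 4 of 6 genes called higher. Pcna, the sliding clamp, had control signals of 2218, 2541 and 2507.5 and BMP4 signals of 3273, 3175 and 3134. The groups did not overlap, and Pcna rose by 0.40 ± 0.08 (SE, limma adjusted p = 0.00768). Among the loader subunits Rfc5 rose by 0.63 ± 0.15 (adjusted p = 0.0263), with signals of 158, 150.5 and 229 against 115, 94.3 and 117, so that BMP4 replicate 3 was the highest. Rfc3 rose by 0.45 ± 0.12 (adjusted p = 0.0352) and Rfc2 by 0.31 ± 0.09 (adjusted p = 0.0488), while Rfc4 gave 0.26 (adjusted p = 0.180) and the large subunit Rfc1 0.16 (adjusted p = 0.420). Dimmer probe sets of these genes were not past the test. They gave 0.44 for Rfc3 (adjusted p = 0.0895) and, with overlapping groups, 0.26 and 0.20 for Rfc2 (0.536 and 0.562). Those of Rfc4 and Rfc1 also overlapped, at 0.08 for Rfc4 (adjusted p = 0.812) and 0.22 and -0.06 for Rfc1 (0.307 and 0.834). Of the 4 genes called higher, 0 passed after arrays were centred on their medians or when eBayes ran without a trend. Leaving out BMP4 replicate 3 left 1 call, as did leaving out control replicate 1 or, in turn, control replicate 2, and leaving out BMP4 replicate 1 or BMP4 replicate 2 left 2.

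**Figure D2:**
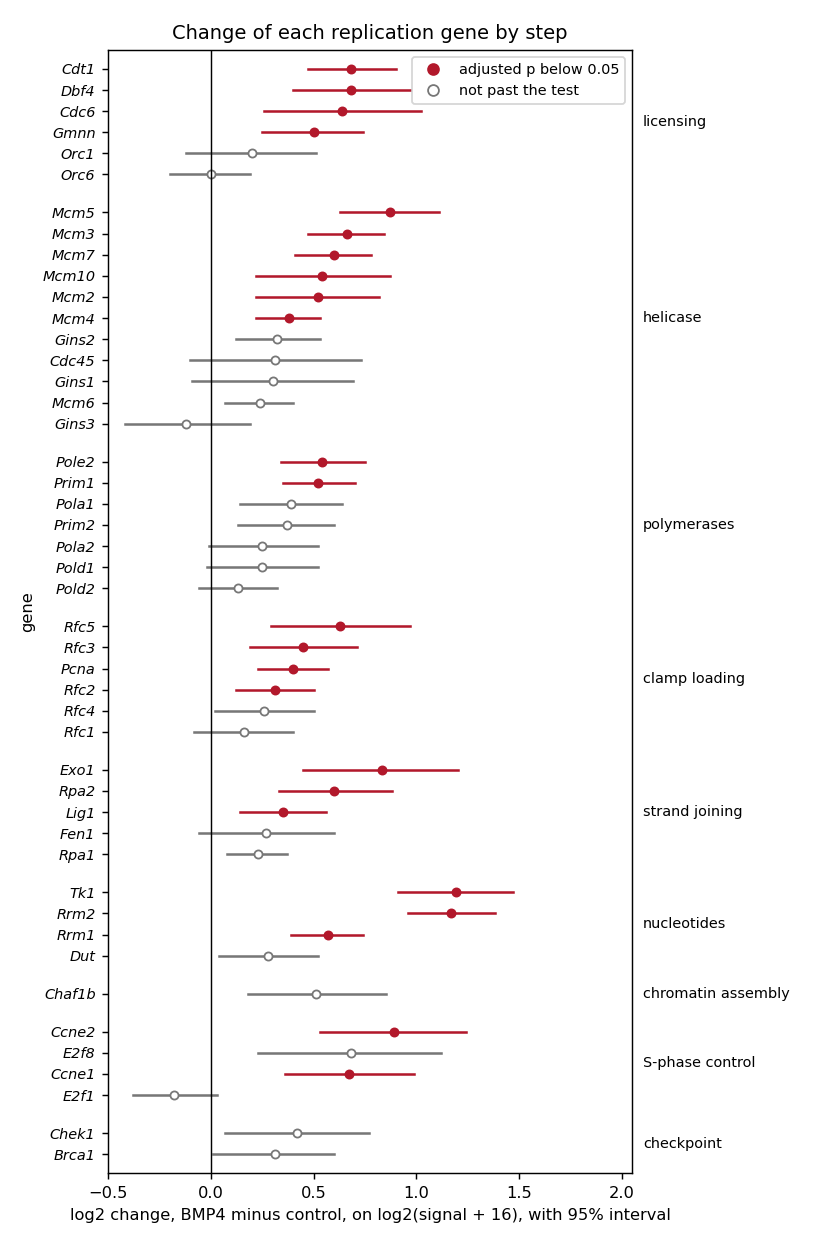
Points are log2 changes of BMP4 against control for the 46 measured genes, grouped by step, with 95% intervals from limma, and filled points passed the test. Tk1 and Rrm2 lie farthest right at 1.19 and 1.17, 43 of 46 points lie right of 0, and no filled point lies left of 0.

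Genes that protect single strands and finish the lagging strand were also higher, 3 of 5 by call. Exo1, an exonuclease of replication and mismatch repair, had signals of 91.0, 93.6 and 81.6 with BMP4 and 47.3, 52.4 and 31.5 without it, and rose by 0.83 ± 0.17 (SE, limma adjusted p = 0.0116). Rpa2, the middle subunit of the single-strand binding protein RPA, rose by 0.60 ± 0.12 (adjusted p = 0.0104), from 94.5, 112 and 87.4 to 173, 145 and 153. Lig1, the ligase that seals nicks between Okazaki fragments, rose by 0.35 ± 0.10 (adjusted p = 0.0450). Every BMP4 array was above every control array for these 3 genes. Dimmer probe sets gave 0.37 for Exo1 (adjusted p = 0.259) and 0.39 for Rpa2 (adjusted p = 0.0730), neither past the test. Rpa1, the large RPA subunit, gave 0.23 (adjusted p = 0.0556) without overlap on its brightest probe set. Its dimmer probe set gave 0.06 with overlapping groups (adjusted p = 0.747). The flap nuclease Fen1 also depended on the probe set, with 0.46 (adjusted p = 0.0146) on the dimmer and 0.27 (adjusted p = 0.329) on the brighter. The brighter Fen1 probe set is of a type that can bind other transcripts.

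The 2 cyclin E genes, whose products drive entry into S phase, rose, while E2f1, an E2F factor that activates transcription, did not pass the test. Ccne2, cyclin E2, had signals of 87.1, 103 and 118 with BMP4 and 58.2, 42.8 and 43.1 without it, and rose by 0.89 ± 0.16 (SE, limma adjusted p = 0.00527). Ccne1, cyclin E1, read 94.1, 123 and 115 against 71.4, 61.5 and 57.0 and rose by 0.67 ± 0.14 (adjusted p = 0.0136), and another probe set gave 0.48 (adjusted p = 0.0965). The Ccne1 call was lost on dropping BMP4 replicate 2, or BMP4 replicate 3, or else control replicate 3, and the number called in this step was 1 without BMP4 replicate 2 or BMP4 replicate 3. E2f1 had signals of 211.5, 213 and 206 with BMP4 and 243, 263 and 214 without it, which put every BMP4 array below every control array, but the change of -0.18 (95% interval -0.38 to 0.03) was not past the test (adjusted p = 0.295). A second E2f1 probe set gave 0.33 (adjusted p = 0.263), so its direction is not settled. E2f8, a repressor of late S phase, gave 0.68 (95% interval 0.23 to 1.12, adjusted p = 0.0633), with control signals of 50.3, 28.3 and 61.2 that varied widely and BMP4 signals of 85.2, 81.9 and 77.7 above all of them.

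In chromatin assembly, the deposition of histones behind the fork, the middle subunit Chaf1b of the CAF-1 complex was the only gene measured, and Chaf1a was unnamed here. Chaf1b had signals of 91.4, 101 and 86.6 with BMP4 and 73.7, 50.8 and 57.9 without it, without overlap, and a change of 0.51 (95% interval 0.18 to 0.85, limma adjusted p = 0.0615), which was past the test with array weights, with a filter at the 60th percentile and without control replicate 1. The checkpoint genes gave positive values that were not past the test. Chek1, the kinase that answers stalled forks, gave 0.42 (adjusted p = 0.137). Brca1, which acts in fork protection and recombination, gave 0.31 (adjusted p = 0.206). Neither had overlapping groups on its brightest probe set. Dimmer Chek1 probe sets gave 0.26 (adjusted p = 0.422) and 0.03 (adjusted p = 0.950), the latter with overlapping groups. A dimmer Brca1 probe set was called higher at 0.72 (adjusted p = 0.0372), with signals of 42.9, 45.7 and 53.9 against 19.8, 19.4 and 29.2. Its control mean of 22.8 was below the background of 29.1, though each control signal was above the highest Bacillus signal of its own array. The probe set passed the filter through its BMP4 arrays, and the size of its change is not settled.

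**Figure D3:**
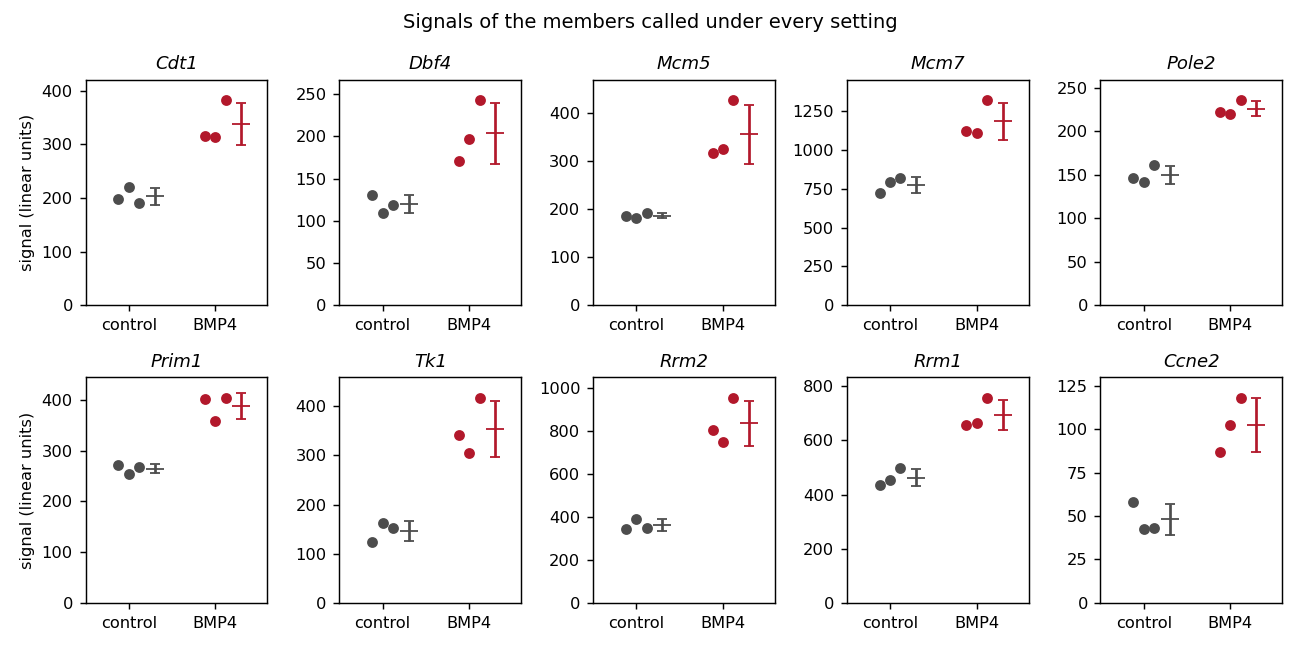
Signals on the 3 control and 3 BMP4 arrays are shown for the 10 genes whose call held under each alternative tried, with the mean and SD beside the points and axes that start at 0. In all 10 panels the BMP4 points lie above the control points, and the gap is widest relative to the control level for Tk1 and Rrm2.

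Where a gene had several probe sets, they mostly moved the same way. In 31 genes more than 1 probe set with a single symbol passed the filter, which gave 42 further probe sets, of which 40 had a positive change and 11 were called higher. These include the called Brca1 probe set and the uncalled Chaf1b one that passed the filter through their BMP4 arrays. For the 24 genes called higher, 23 further probe sets were available, all 23 were positive and 9 were called. The 2 negative ones belonged to Cdc45 and Rfc1. Among the representing probe sets 9 had a suffix that marks possible binding to other transcripts, and with probe sets of that kind left out 23 genes were called higher.

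**Figure D4:**
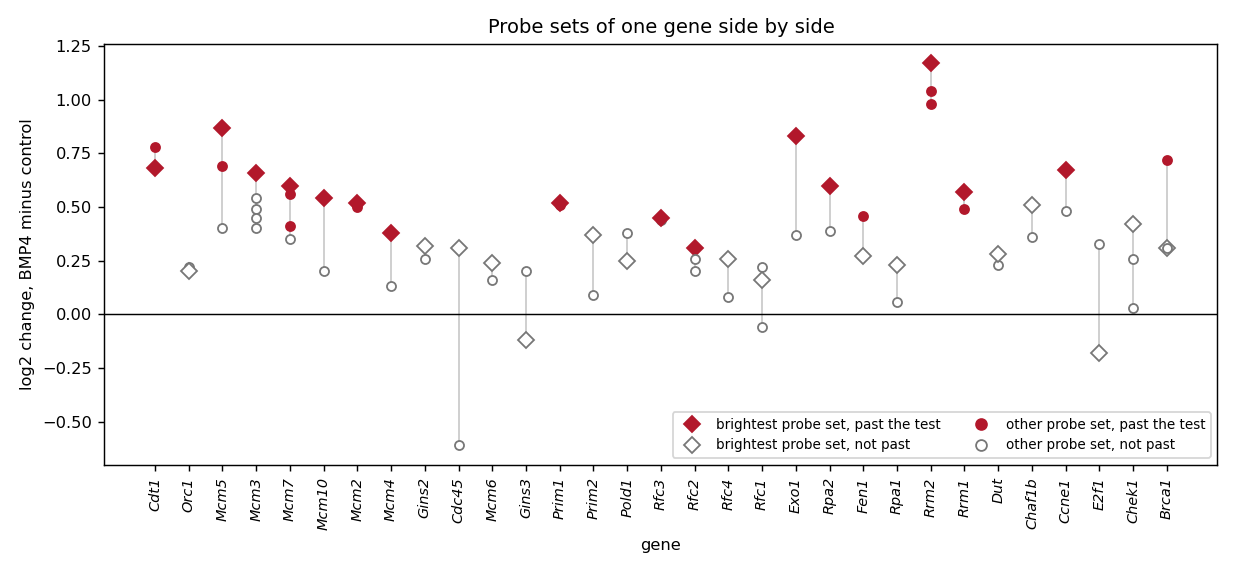
Each column is a gene with more than 1 probe set past the filter, diamonds are the brightest probe set and circles the others, on the scale of log2 change. Most columns lie above 0 throughout, Rrm2 has all 3 of its probe sets near 1 or above it, and Cdc45, Gins3, Rfc1 and E2f1 cross 0.

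Other genes of the same processes, taken from lists built on textbook roles, are set beside these values. For comparison, 5.03% of all genes tested were called higher and 5.66% lower. Of 33 measured genes of the replication machinery outside the 49, 3 (9.09%) were called higher and 0 lower, with a median of 0.14. At an unadjusted p under 0.05 (limma) 11 were higher and 1 lower. Those called were Clspn, the claspin adaptor of the replication checkpoint (0.91), the topoisomerase gene Top2a (0.47) and Tipin, a fork protection factor (0.46). Of 22 further genes of nucleotide and one-carbon supply 4 were called higher and 0 lower (7 and 3 unadjusted), with a median of 0.08. The largest was Mthfd2, a mitochondrial enzyme of folate metabolism, at 0.94 ± 0.11 (SE, adjusted p = 0.000261), followed by the kinase Dck (0.44) and Shmt2 (0.43). Of 15 measured genes of histone supply and chromatin copying 7 were called higher and 0 lower (12 and 0 unadjusted), with a median of 0.25, led by the histone chaperone Asf1b (1.20), the centromeric histone Cenpa (0.84) and Uhrf1, which brings DNA methylation to new strands (0.83).

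The switch from G1 to S was mixed, and mitosis genes had larger values than replication genes. Of 35 measured genes of the switch 10 were called higher and 3 lower, with a median of 0.18. The largest changes were those of Mycn (1.30, with overlapping groups and a control mean signal of 32.6 ± 26.0, SD, n = 3, that rests on 1 array above background), E2f6, a repressor of the E2F family (-1.03 ± 0.09, SE, limma adjusted p = 3.58e-05), and Cks2, a binding partner of cyclin-dependent kinases (1.01). The Mycn call was lost without the filter (adjusted p = 0.103), without the trend (adjusted p = 0.109), and on dropping BMP4 replicate 1 or BMP4 replicate 2, or control replicate 1 or else control replicate 2 (adjusted p = 0.101 to 0.125). Ccnd1 and Cdkn1a are named after their values were seen. Ccnd1, a D cyclin gene, fell by 0.32 (adjusted p = 0.0400), and Cdkn1a, the inhibitor p21, rose by 0.66 (adjusted p = 0.000565). Of 37 measured mitosis genes 30 were called higher and 0 lower (35 and 0 unadjusted), with a median of 0.81, led by Plk1 (1.21), Kif23 (1.17) and Pttg1 (1.15). On the BMP4 arrays the median difference of the mitosis genes from the control mean was 0.74, 0.74 and 0.93, so replicate 3 was highest there as it was for the replication genes. The difference between the lists was not tested.

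**Figure D5:**
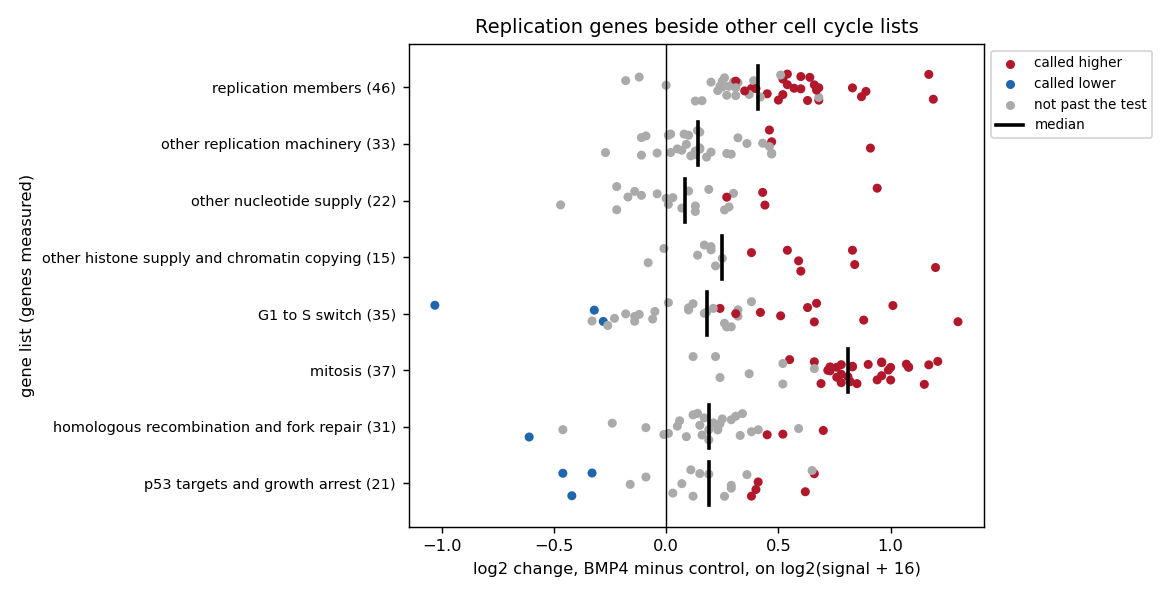
Each point is the log2 change of a measured gene, red if called higher, blue if called lower and grey otherwise, and the black bars are medians. The replication genes have a median of 0.41, between 0.14 for the other replication machinery and 0.81 for mitosis.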

How the data were processed

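The authors deposited linear signal intensities of biotin-labelled total RNA on 1-colour arrays, made with GCOS 1.3 per the submitters' processing notes. For background correction, scaling settings and genome build the sources used here give nothing. The equal trimmed means are what global scaling gives, so no further scaling was applied, and a change common to most transcripts is hidden. Groups came from the sample titles. Of 45101 probe sets, 64 controls were left out, and of the rest and the controls together 34958 had 1 symbol, 932 several and 9211 none here.

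Signals were taken as log2(signal + 16), and probe sets with a mean above the 40th percentile (a signal of 23.5) were kept. limma 3.58.1 in R 4.3.3 (lmFit, eBayes with intensity trend, two-sided) was fitted to all 27022, with Benjamini-Hochberg adjustment over them. The script was tested on simulated data, where 32% of 50 changes of 1.5-fold and 80% of 50 changes of 2-fold were recovered. Genes not past the test may therefore still have changed. With 3 arrays a group, their number limits precision.

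The 49 members and all lists were chosen with earlier results of these data known. By rule, every called member was named, in each step with none called the member with the smallest p, other members to complete a step or where probe sets disagreed, and up to 3 called genes per related list. A gene that this rule would name is not reported here. Alternatives changed the pseudocount, filter, normalization, eBayes settings, weights, replicate block, choice of probe set, threshold and replicates used; leaving out probe sets ending in _s_at or _x_at was added after seeing the data. Promoters come from RefSeq (GRCm38.p6), and the array files name no build.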

Additional observations from a re-analysis of the deposited data

How the results depend on the processing

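Of the 24 members called higher, 10 kept the call under each of the alternatives that could be run for them, namely Cdt1, Dbf4, Mcm5, Mcm7, Prim1, Pole2, Rrm1, Rrm2, Tk1 and Ccne2, and 6 (Cdc6, Lig1, Mcm2, Mcm10, Rfc2 and Rfc3) lost it under 10 or more. No called member changed sign, and 0 members were called lower under any alternative. The number called higher was 15 with median centring, 13 at an adjusted p of 0.01 and 15 to 20 when 1 replicate was left out; the number of probe sets was 22, 19 and 23 to 30. The median change was 0.32 with median centring, 0.33 with a pseudocount of 64 and 0.39 to 0.46 with 1 replicate left out. Median centring lowered the median over all probe sets from 0.03 to -0.07 and the number of all probe sets called higher from 1136 to 632, against 1328 and 1890 called lower. A stricter threshold can only remove calls, and the causes of the other differences were not tested. Leaving out a replicate changes both the number of arrays and which ones remain, and these cannot be told apart here.

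By step, licensing gave 2 with median centring and at 0.01, and 2 to 3 with 1 replicate left out. Helicase gave 3 without the intensity trend and 3 with the second brightest probe set. Polymerases gave 4 with cyclic loess, quantile normalization or the filter at the 60th percentile. Clamp loading gave 0 with median centring or without the trend, 1 without the filter or at 0.01, 2 with the replicate block or the second brightest probe set, and 1 to 4 with 1 replicate left out. Strand joining gave 0 at 0.01. Chromatin assembly gave 1 with array weights or the 60th percentile and 0 to 1 with 1 replicate left out. S-phase control gave 1 with the second brightest probe set, at 0.01 or without probe sets ending in _s_at or _x_at, and 1 to 2 with 1 replicate left out.

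Among the related lists, other replication machinery had 5 higher with the 60th percentile and 6 with the mean of a gene's probe sets. Other nucleotide supply had 1 higher and 1 lower with median centring or the second brightest probe set, 2 and 2 with the mean of probe sets, 2 higher without the filter, without the trend or with the replicate block, 1 higher at 0.01, 2 lower with cyclic loess or quantile normalization, 1 lower with the 60th percentile or robust eBayes, and 2 to 3 higher and 0 to 1 lower with 1 replicate left out. The G1 to S switch had 5 higher with median centring, 6 higher and 1 lower without the filter, 3 and 1 without the trend, 4 and 1 at 0.01, 1 lower with the second brightest probe set, and 4 to 7 higher and 1 to 2 lower with 1 replicate left out. Recombination repair had 1 higher with median centring, without the filter or with the replicate block, 0 higher at 0.01, 1 to 2 higher with 1 replicate left out, and 0 lower with the mean of probe sets, without the trend, with the second brightest probe set, at 0.01 or without probe sets ending in _s_at or _x_at. Growth arrest had 2 higher with median centring or without the trend and 1 lower at 0.01.

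Values that changed sign were those of Orc6 (0.02 with cyclic loess, quantile normalization or without BMP4 replicate 2, 0.04 without control replicate 1 and 0.03 without control replicate 2), Cdc45 (-0.15 with the mean of its probe sets and -0.61 with the second), E2f1 (0.08 and 0.33), Gins3 (0.04 and 0.20) and Rmi1 (0.02 with its second probe set, which is also its value without probe sets ending in _s_at or _x_at).

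The replicate numbers in the titles are shared by the groups, but deviations of same-numbered arrays correlated at 0.01, -0.003 and -0.072, and no BMP4 array correlated best with the control array of its number. With the replicate block 18 members were called higher.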

Other observations

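Most genes of homologous recombination and of growth arrest were not past the test, though 23.8% of the growth arrest genes were called higher. Over all genes tested these shares were 5.03% higher and 5.66% lower. Of 31 measured genes of recombination and fork repair 3 (9.68%) were called higher and 1 lower, with a median of 0.19. Among these Rad54l, a DNA-dependent ATPase of recombination, gave 0.52 ± 0.14 (SE, limma adjusted p = 0.0444). Rmi1, a part of the complex that dissolves recombination intermediates, gave -0.61 on its brightest probe set and 0.02 on another. Of 21 measured genes of the p53 response and growth arrest 5 were called higher and 3 lower, with a median of 0.19. The called genes with the largest changes were Cdkn1a (0.66), Gas6, a growth arrest-specific ligand (0.62), and Gadd45g (-0.46).

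Some probe sets of replication genes did not pass the filter and were not tested. The single Pole probe set read 15.6, 10.8 and 36.4 with BMP4 and 8.20, 9.70 and 7.10 without it, under the background signal of 29.1 on 5 of 6 arrays. One of the Brca1 probe sets read 36.7, 32.8 and 25.7 against 19.5, 12.4 and 16.2.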
